A study of Homo sapiens with 12 samples.

Results

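IKZF3, C8orf46 and SERPINA3 are 3 genes that were close to silent in HCT116 cells without TNF-alpha (TNF) and clearly counted with it. They are 3 of the 56634 gene symbols in the count table. They were chosen by their counts in these libraries, a few in cells without TNF and well above that in cells with it, so the TNF difference itself is a description here and carries no test. HCT116 is an established human colorectal carcinoma line, and its RNA was sequenced in 12 libraries, 4 groups of 3 biological replicates. In the group given TNF plus Senexin B, cells were pretreated with Senexin B at 1 µM for 1 hour before TNF at 10 ng/mL was added for 2 hours. The TNF group had 0.1% DMSO in place of the inhibitor during the same 3 hours. The Senexin B group had 1 µM inhibitor and no TNF, and the control group had 0.1% DMSO alone, each for 3 hours.

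IKZF3 encodes Aiolos, a zinc finger transcription factor of the Ikaros family known from lymphocytes. GENCODE 29 (build GRCh38) places it on chromosome 17 from 39757715 to 39864188 on the minus strand, with 17 transcripts. C8orf46, now named VXN or vexin, is known from Xenopus as a gene of nerve cell formation. It lies on chromosome 8 from 66493208 to 66518524 on the plus strand, with 10 transcripts. SERPINA3 encodes alpha-1-antichymotrypsin, a secreted serine protease inhibitor of the acute-phase response. It lies on chromosome 14 from 94612377 to 94624055 on the plus strand, with 9 transcripts. All 3 are annotated as protein-coding, and they lie on different chromosomes.

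TNF is an inflammatory cytokine that, through its receptor, releases the transcription factor NF-kB from inhibitor proteins so that it can enter the nucleus. Senexin B inhibits CDK8 and CDK19, kinases of the Mediator complex, which links transcription factors to RNA polymerase II. Genes that are near zero at rest can be followed only as counts, because a fold over such a baseline depends on a handful of reads.

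The promoter of SERPINA3 is shown because of the 3 genes it is the 1 matched in the promoter table, and SERPINA3 also had the largest difference of them between the TNF groups with and without inhibitor. RefSeq (GRCh38.p14) gives it at chr14:94612141-94612440 on the plus strand, 250 bases before to 50 bases after the start. The capitals mark the only match to the loose NF-kB pattern GGGNNNNNCC on either strand. It is read on the minus strand and its first base lies at -67 from the start.
SERPINA3 promoter: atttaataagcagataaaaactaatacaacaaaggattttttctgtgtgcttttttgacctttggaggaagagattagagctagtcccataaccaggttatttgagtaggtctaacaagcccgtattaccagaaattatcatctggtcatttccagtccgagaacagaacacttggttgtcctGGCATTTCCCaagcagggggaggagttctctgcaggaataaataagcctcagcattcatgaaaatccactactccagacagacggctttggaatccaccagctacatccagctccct
The loose pattern is common, since 58.7% of the 35116 RefSeq promoters of this length hold it on one strand or the other. A C/EBP-type pattern, TTNNGNAA, overlaps the marked bases from -63 and occurs in 36.8% of promoters. The stricter NF-kB consensus (in 5.91% of promoters), the AP-1 pattern TGANTCA (7.71%) and the STAT pattern TTCNNNGAA (7.66%) had no match in this window. Neither TATAAA (11.5%) nor CCAAT (34.6%) had one.

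Library totals ran from 5835226 to 9281176 counts, so 1 CPM, the usual unit of counts scaled to library size, equals about 5.77 to 9.34 counts in a library. A library with 0 counts still allows up to 3.69 counts by the exact Poisson interval at 95%. Intervals of counts, of their ratios and of shares cover counting error only, and those of fitted folds include the spread between replicates. The filter on low counts left 13084 genes for testing. All 3 genes passed it, through the TNF-treated libraries in which they are high. TNF replicate 1 was the smallest library.

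IKZF3 had 25, 16 and 23 counts in the libraries with TNF plus Senexin B. It had 15, 15 and 20 counts with TNF, 0, 1 and 1 counts with Senexin B, and 1, 0 and 1 counts in controls. The 6 TNF-treated libraries all stood at 15 counts or more and the other 6 at 1 or fewer, while the TNF groups with and without inhibitor overlapped. The summed counts were 64 with TNF plus Senexin B (95% interval 49.3 to 81.7), 50 with TNF (37.1 to 65.9), and 2 in each group without TNF (0.242 to 7.22). Per library size, the summed IKZF3 count was 28.2 times higher with TNF than in controls, with an interval from 7.40 to 239. With the inhibitor present it was 32.6 times higher with TNF plus Senexin B than with Senexin B alone (8.66 to 275). Without control replicate 2 the first ratio was 18.6 (4.89 to 158). Aiolos mRNA was thus counted in every TNF-treated library, and the ratios rest on 2 reads in each group without TNF.

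C8orf46 had 16, 19 and 13 counts with TNF plus Senexin B. It had 20, 18 and 27 counts with TNF, 2, 2 and 3 counts with Senexin B, and 1 count in each control library. The TNF-treated libraries again stood apart from those without TNF. Between the TNF-treated groups, 19 counts with inhibitor lay above 18 in a TNF library, so their raw counts overlapped. The sums were 48 with TNF plus Senexin B (35.4 to 63.6), 65 with TNF (50.2 to 82.8), 7 with Senexin B (2.81 to 14.4) and 3 in controls (0.619 to 8.77). The C8orf46 sum per library size was 24.4 times higher with TNF than in controls (7.99 to 121). With TNF plus Senexin B it was 6.98 times higher than with Senexin B (3.14 to 18.3). These ratios have overlapping intervals. C8orf46 was the only one of the 3 genes with reads in every one of the 12 libraries.

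SERPINA3 had 15, 25 and 19 counts with TNF plus Senexin B. It had 6, 8 and 10 counts with TNF, 0, 1 and 2 counts with Senexin B, and 1, 0 and 0 counts in controls. Every library with TNF plus Senexin B was above every TNF library, and every TNF library was above every library without TNF. The sums were 59 with TNF plus Senexin B (44.9 to 76.1), 24 with TNF (15.4 to 35.7), 3 with Senexin B (0.619 to 8.77) and 1 in controls (0.0253 to 5.57). The SERPINA3 sum per library size was 27.03 times higher with TNF than in controls, with an interval from 4.41 to 1112 that rests on a single control read. That read was in control replicate 1. Without this library the ratio was 6.32 when the controls were set to a floor of 3 counts over the group, and its exact lower limit was 4.76. Without control replicate 2 it was 17.9, and without control replicate 3 it was 17.2. With TNF plus Senexin B the sum was 20.03 times higher than with Senexin B (6.53 to 99.9), and 38.4 times higher without Senexin B replicate 3.

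**Figure D1:**
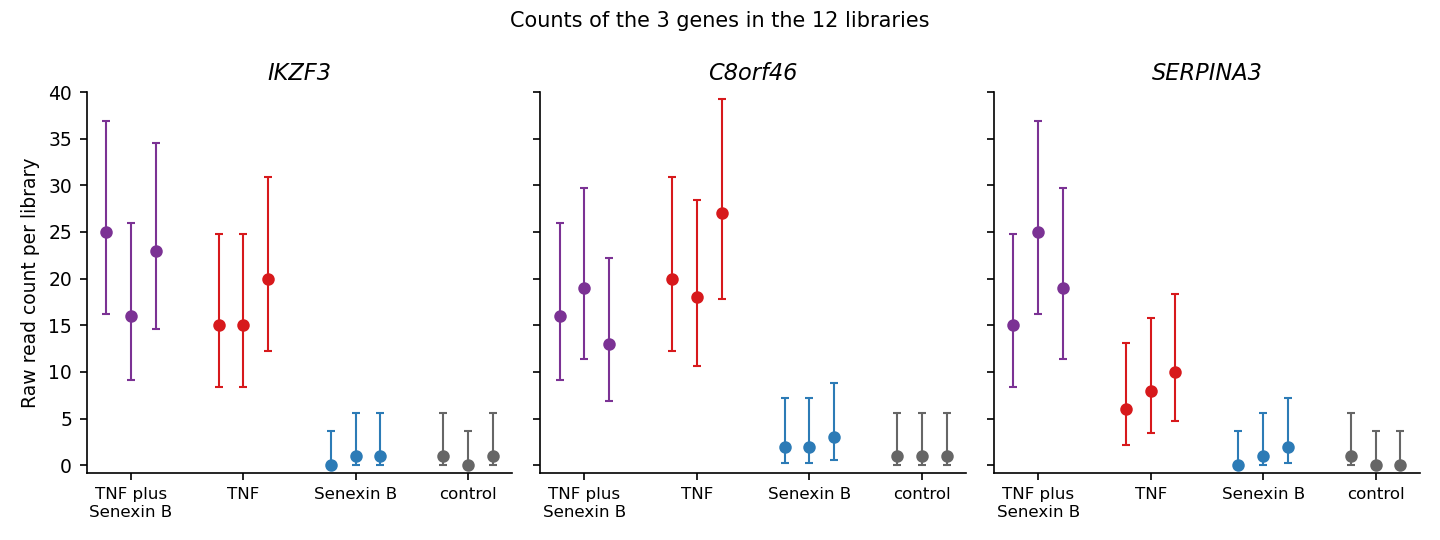
Raw read counts of IKZF3, C8orf46 and SERPINA3 (vertical axis) in each of the 12 libraries, by group, with exact 95% Poisson intervals as bars. All libraries without TNF lie at 3 counts or fewer, and the 3 SERPINA3 points with TNF plus Senexin B (15 to 25 counts) lie above the 3 with TNF (6 to 10 counts).

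In the test across all genes, all 3 genes were called higher in both comparisons with TNF, which their choice fixes. Of all tested genes, 10% were called for TNF against control, and 5.95% for TNF in the presence of the inhibitor. In bulk RNA, more cells with the transcript and more transcript per cell cannot be told apart, so these sums do not say how many cells held IKZF3, C8orf46 or SERPINA3 RNA. Spread between replicates was close to counting error. The SD of the IKZF3 counts was 4.73 with TNF plus Senexin B and 2.89 with TNF, where counting alone gives 4.62 and 4.08. For SERPINA3 it was 5.03 and 2 counts in those groups, where counting gives 4.43 and 2.83.

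As levels, IKZF3 averaged 2.52 ± 0.578 CPM with TNF plus Senexin B, 2.29 ± 0.402 CPM with TNF, 0.0770 ± 0.0672 CPM with Senexin B and 0.0817 ± 0.0718 CPM in controls (SD, n = 3 each). Its order has a single step, between the TNF-treated groups and the others, and neighbours on either side of that step lie within each other's spread. C8orf46 averaged 1.89 ± 0.369 CPM with TNF plus Senexin B, 2.99 ± 0.684 CPM with TNF, 0.268 ± 0.0466 CPM with Senexin B and 0.121 ± 0.0123 CPM in controls. SERPINA3 averaged 2.31 ± 0.576 CPM with TNF plus Senexin B, 1.08 ± 0.125 CPM with TNF, 0.113 ± 0.107 CPM with Senexin B and 0.0449 ± 0.0778 CPM in controls. By these means SERPINA3 stood highest with both agents, C8orf46 with TNF alone, and IKZF3 at about the same level in both.

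Levels of different genes can be compared only per length, here CPM per kilobase of merged exons (10008 bases for IKZF3, 5074 for C8orf46 and 5007 for SERPINA3). With TNF plus Senexin B the per-kilobase levels were 0.251 ± 0.0578 for IKZF3, 0.372 ± 0.0728 for C8orf46 and 0.462 ± 0.115 for SERPINA3. With TNF they were 0.229 ± 0.0401 for IKZF3, 0.590 ± 0.135 for C8orf46 and 0.216 ± 0.0250 for SERPINA3. C8orf46 was the highest of the 3 with TNF, and IKZF3 and SERPINA3 did not differ there beyond their spread. With the inhibitor SERPINA3 had the highest mean, and the C8orf46 mean lay within its spread. The merged exons of GENCODE 29 may exceed the exons used in these cells, which lowers such values.

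The effect of Senexin B in TNF-treated cells was the comparison that did not decide the choice of genes, although the TNF libraries entered that choice as high values. None of the 3 genes was called at an adjusted p under 0.05, against 5.45% of all tested genes. SERPINA3 was 2.12-fold higher with TNF plus Senexin B than with TNF (interval 1.28 to 3.51), a log2 fold change of 1.08 ± 0.37 (SE). Its adjusted p was 0.0576 in edgeR's quasi-likelihood test, with an unadjusted p of 0.00346. The CPM of its groups did not overlap, at 1.81 to 2.94 with TNF plus Senexin B and 0.981 to 1.22 with TNF. Such separation in either direction was seen in 22.6% of tested genes. Alpha-1-antichymotrypsin mRNA thus lay higher with the inhibitor in every library and narrowly missed the threshold. With the replicate number as a block the adjusted p was 0.0456, and with DESeq2 it was 0.315.

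C8orf46 had a log2 fold change of -0.64 ± 0.29 for TNF plus Senexin B against TNF, with an adjusted p of 0.191 in edgeR's test and an unadjusted p of 0.0271. Scaled by library size, the ratio of its summed counts was 0.641, and the counting interval from 0.432 to 0.945 lay below 1. A gene chosen for high TNF counts can have a ratio under 1 from that choice alone. IKZF3 had a log2 fold change of 0.15 ± 0.29, with an adjusted p of 0.833, and its fold of 1.11 had an interval from 0.747 to 1.65. That interval holds lower as well as higher levels, so these counts do not show that the inhibitor had no effect on IKZF3.

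In the summed counts the 3 genes divided their reads differently in the TNF-treated groups, although none was called between these groups. The TNF libraries entered the choice of genes as high values, which can itself move these shares. SERPINA3 took 34.5% of the 171 reads of the 3 genes with TNF plus Senexin B (exact binomial interval 27.4 to 42.1%) and 17.3% of 139 reads with TNF (11.4 to 24.6%). C8orf46 took 28.1% with TNF plus Senexin B (21.5 to 35.4%) and 46.8% with TNF (38.3 to 55.4%). IKZF3 took 37.4% with TNF plus Senexin B (30.2 to 45.1%) and 36.0% with TNF (28.0 to 44.5%). By library, the SERPINA3 share ran from 26.8% to 41.7% with TNF plus Senexin B and from 14.6% to 19.5% with TNF. The C8orf46 share ran from 23.6% to 31.7% with TNF plus Senexin B and from 43.9% to 48.8% with TNF. For both genes the shares of the TNF-treated groups did not overlap, whereas those of IKZF3 did. How often other genes separate in this way was not counted, so this is a description only. The 3 shares add up to the whole, so a higher share of one gene by itself lowers the others. These shares use no library size, so they do not depend on the scaling.

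Without TNF, the inhibitor's effect could hardly be measured at this depth. None of the 3 genes was called for Senexin B against control, where 3.04% of tested genes were, and the control libraries entered the choice as low values. C8orf46 had 7 counts with Senexin B and 3 in controls, a ratio of 2.24 with an interval from 0.511 to 13.4 and an adjusted p of 0.633 in edgeR's test. IKZF3 had 2 counts in each group and SERPINA3 had 3 with Senexin B and 1 in controls, at or under the floor, so no fold is given. The test of whether the TNF effect differed with the inhibitor (an interaction term) had adjusted p-values of 0.991 for IKZF3, 0.808 for C8orf46 and 0.983 for SERPINA3, and 0.0459% of all tested genes were called in it. Its standard error on the log2 scale ran from 1.03 for C8orf46 to 1.76 for SERPINA3, so only very large differences could have passed.

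Few silent genes behaved in this way. In the control libraries 40548 symbols had 5 counts or fewer over the group, and 33932 of them had no count in the TNF libraries. Only 7 reached 20 counts over the 3 TNF libraries. By TNF count C8orf46 stood at place 3 among these, IKZF3 at place 4 and SERPINA3 at place 6. TNFRSF9, the costimulatory TNF receptor family member also called 4-1BB, led with summed counts of 246 with TNF plus Senexin B, 314 with TNF, 0 with Senexin B and 5 in controls. CCL20, a chemokine that attracts CCR6-bearing cells, had 142, 118, 0 and 1 counts in the same order of groups. The others were LINC00943, a long non-coding RNA with 12, 26, 0 and 3 counts, and 1 symbol named after a clone. Just under the limit, LTB, a TNF family ligand, had 7 counts with TNF plus Senexin B and 17 with TNF, against 1 with Senexin B and 1 in controls. Just outside it on the control side, CXCL2 had 44, 92, 5 and 6 counts and CXCL3 had 57, 69, 7 and 7 counts. Both are neutrophil-attracting chemokines.

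**Figure D2:**
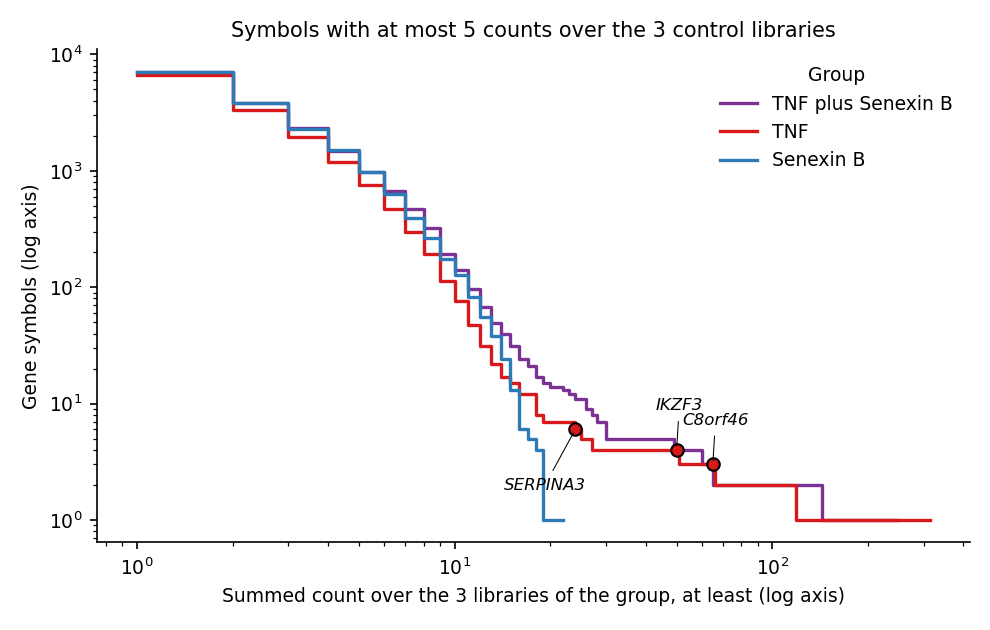
Number of gene symbols (vertical log axis) with at least a given summed count over the 3 libraries of a group (horizontal log axis), among symbols with 5 or fewer counts over the 3 control libraries. At 20 counts 14 symbols remained with TNF plus Senexin B, 7 with TNF and 1 with Senexin B; dots mark C8orf46 (65 counts), IKZF3 (50) and SERPINA3 (24) on the TNF curve.

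These 7 symbols did not share a direction between the TNF-treated groups, and 1 of them was called. Scaled by library size, the ratio of summed counts, TNF plus Senexin B over TNF, was under 1 for 4 and over 1 for 3, with a median of 0.792. SERPINA3 was the only one whose counting interval lay above 1, at a ratio of 2.13 (1.31 to 3.59). The intervals of TNFRSF9 at 0.680 (0.573 to 0.806), C8orf46 and LINC00943 at 0.401 (0.184 to 0.822) lay below 1. LINC00943 had 0, 3 and 9 counts with TNF plus Senexin B and 10, 5 and 11 with TNF, so its libraries overlapped. Its counting interval leaves out this spread between replicates. All 7 symbols were chosen for high TNF counts, which can by itself give ratios and a median under 1. Of the 5 that passed the filter, TNFRSF9 was called lower, with a log2 fold change of -0.56 ± 0.13 and an adjusted p of 0.00418 in edgeR's test, against 2.55% of tested genes called lower. Its counts were 87, 81 and 78 with TNF plus Senexin B and 82, 119 and 113 with TNF. With DESeq2 its adjusted p was 0.0847. CCL20, at a ratio of 1.04 and an adjusted p of 0.906 in edgeR's test, was not called, and neither was any of IKZF3, C8orf46 and SERPINA3.

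**Figure D3:**
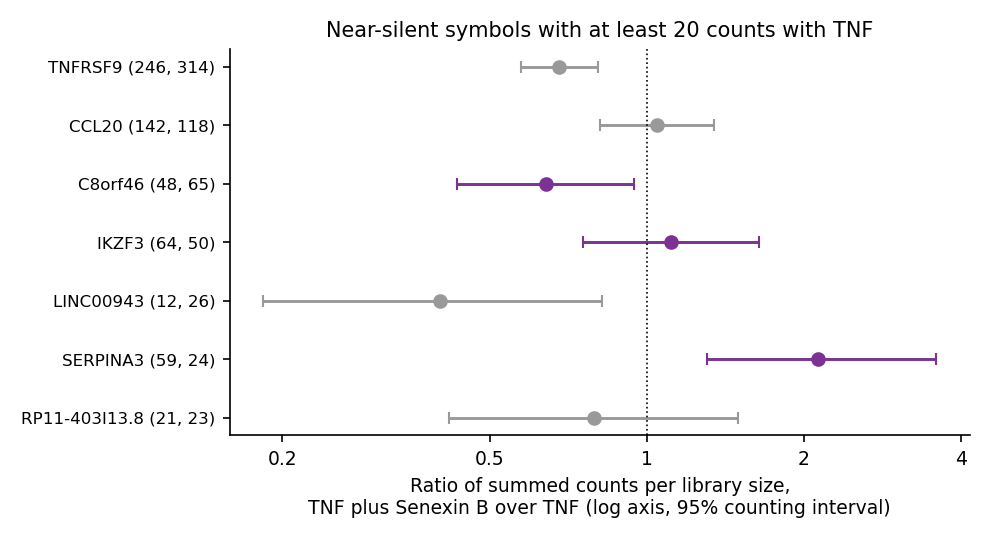
Summed counts per library size as a ratio, TNF plus Senexin B over TNF (horizontal log axis), with exact 95% counting intervals, for the 7 symbols near silent in controls with at least 20 counts with TNF. Names carry the summed counts with TNF plus Senexin B and with TNF. SERPINA3 lies to the right of 1 with its whole interval, and TNFRSF9, C8orf46 and LINC00943 to the left. The choice for high TNF counts can by itself move ratios to the left.

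The genes whose levels ran closest to each member were found by the root mean square difference of centred log2(CPM + 1) values over the 12 libraries. For IKZF3 these were BIRC2, an inhibitor of apoptosis that acts in TNF receptor signalling (0.155), ELF3, an epithelial ETS factor (0.157), TRIML2 (0.173), HIVEP1, a zinc finger protein that binds kB-type sequences (0.179), and FOSL2, an AP-1 subunit (0.183). The median over all tested genes was 0.848. For C8orf46 they were IFNGR2, a chain of the interferon-gamma receptor (0.179), OPTN, the autophagy receptor optineurin (0.197), SLC16A9 (0.217), CXCL3 (0.218) and ATF3, a stress-induced transcription factor (0.225), against a median of 0.793. For SERPINA3 they were ITGB8, an integrin chain (0.210), FOSL2 (0.231), DUSP5, a nuclear ERK phosphatase (0.238), ABTB2 (0.244) and TIFA, an adaptor of TRAF6 signalling (0.245), against a median of 0.706. C8orf46 came 26th and SERPINA3 46th on the IKZF3 list. IKZF3, C8orf46 and SERPINA3 were chosen for low counts without TNF and higher counts with it, and the likeness used those same counts. Closeness to genes that differ with TNF, and to each other, can follow from that choice. The named genes were picked as the smallest distances, so their gap to the median is a description and carries no test. The likeness is of the difference in log2(CPM + 1), which shrinks low genes, and not of level. BIRC2 averaged 171 ± 7.69 CPM with TNF plus Senexin B, 152 ± 9.80 CPM with TNF, 56.2 ± 1.51 CPM with Senexin B and 50.7 ± 2.37 CPM in controls.

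No other tested member of the Ikaros family (3 genes) or of the clade A serpins (2 genes) was called with TNF. Over all tested genes 10% were called for TNF against control and 5.95% for TNF in the presence of the inhibitor. So few genes without a call do not differ from those shares, and the calls of IKZF3 and SERPINA3 follow from their choice. Of the 5 Ikaros family genes 4 passed the filter, and IKZF3 was the only one called with TNF. IKZF1, which encodes Ikaros itself, had 1 count in all 12 libraries together. IKZF2 (Helios) had summed counts of 31 with TNF plus Senexin B, 24 with TNF, 34 with Senexin B and 47 in controls, and a log2 fold change for TNF against control of -0.79 ± 0.40 with an adjusted p of 0.213. IKZF4 (Eos) averaged 11.4 ± 0.189, 12.2 ± 1.30, 12.4 ± 0.903 and 12.6 ± 0.936 CPM in that order of groups. IKZF5 (Pegasus) averaged 38.3 ± 3.30, 40.5 ± 4.79, 36.3 ± 0.441 and 40.9 ± 2.43 CPM. Both passed the filter and were not called in any comparison.

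Of 12 clade A serpins 3 passed the filter, 6 had no count in any library, and SERPINA3, by its choice, was the only one called with TNF. SERPINA1, alpha-1-antitrypsin and a neighbour of SERPINA3 in the genome, had 57 counts with TNF plus Senexin B, 59 with TNF, 48 with Senexin B and 41 in controls. Its log2 fold change for TNF against control was 0.69 ± 0.31, with an adjusted p of 0.159 in edgeR's test. SERPINA5, the protein C inhibitor, had 69, 44, 61 and 51 counts in that order. Among 18 listed serpins of other clades 11 passed the filter, and SERPINB1, SERPINB8 and SERPINB9 rose with TNF both without and with the inhibitor. Of all tested genes, 5.81% were called higher with TNF without the inhibitor and 4.27% with it. SERPINB9, an intracellular inhibitor of granzyme B, averaged 68.2 CPM with TNF plus Senexin B, 84.7 CPM with TNF, 34.0 CPM with Senexin B and 48.3 CPM in controls, with SDs from 1.05 to 5.16 CPM. It fell by 0.31 on the log2 scale with TNF plus Senexin B against TNF (adjusted p of 0.000434 in edgeR's test). That is the other direction from SERPINA3, which was not called. SERPINB9 was also lower in Senexin B against control, at a log2 fold change of -0.51 (adjusted p of 1.32e-06), and its interaction term of 0.20 was not called.

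**Figure D4:**
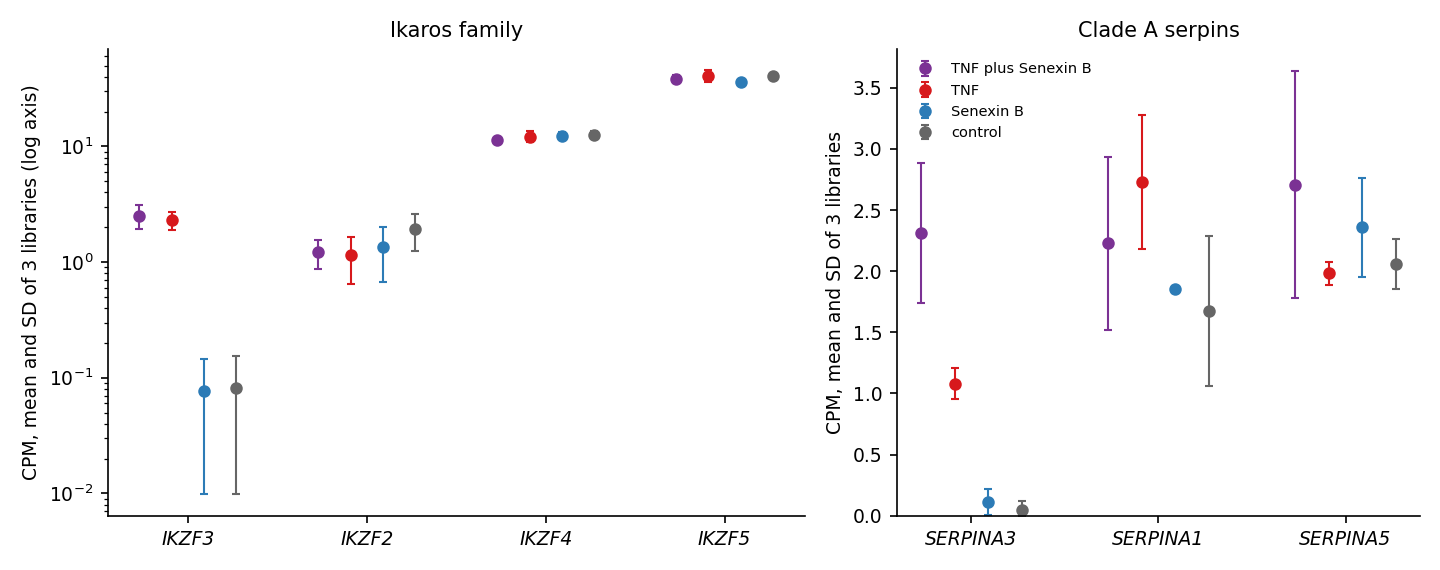
Mean CPM with SD of 3 libraries per group for the tested Ikaros family genes (left, log axis) and the tested clade A serpins (right, linear axis from 0), in the order TNF plus Senexin B, TNF, Senexin B, control. IKZF3 and SERPINA3 are near 0 without TNF, while IKZF2, IKZF4, IKZF5, SERPINA1 and SERPINA5 have reads in all 4 groups.

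Genes of the processes for which the 3 are known mostly fell below the filter. Of 24 acute-phase genes 4 passed the filter and SERPINA3 was the only one called with TNF. LCN2, the iron-carrier-binding lipocalin, had 46 counts with TNF plus Senexin B, 47 with TNF, 56 with Senexin B and 46 in controls. SERPING1, the C1 inhibitor, had 35, 27, 26 and 30. Complement C3 had 21, 34, 3 and 6 counts and the serum amyloid gene SAA1 had 5, 3, 0 and 0, both too low to be tested. Of 22 lymphocyte transcription factors 8 passed the filter, of which IKZF3 and XBP1 rose and TCF3 and RUNX3 fell in TNF against control. In that comparison 10% of all tested genes were called, and 5.81% were called higher. XBP1, a factor of the unfolded protein response and of plasma cells, averaged 106 ± 7.82 CPM with TNF plus Senexin B, 79.4 ± 4.32 CPM with TNF, 87.7 ± 1.25 CPM with Senexin B and 67.5 ± 3.13 CPM in controls. It rose with TNF plus Senexin B against TNF by 0.41 ± 0.06 on the log2 scale (adjusted p of 4.50e-07 in edgeR's test). XBP1 was also higher in Senexin B against control, by 0.38 (1.03e-05), and its interaction term of 0.04 was not called. Of 21 genes of nerve cell formation 7 passed the filter, none rose, and TUBB3 and HES6 fell in TNF against control, by 0.59 and 0.39 on the log2 scale. Some of these calls for TNF against control rested on 1 library. In edgeR's test TCF3 had an adjusted p of 0.139 without TNF replicate 1 and 0.0592 without control replicate 3, and RUNX3 had 0.116 without TNF replicate 1 and 0.0583 without control replicate 2. XBP1 had 0.0701 without TNF replicate 2, and TUBB3 had 0.124 without TNF replicate 3 and 0.107 without control replicate 1. Leaving out SERPINA3 and IKZF3, which were chosen for their rise, the median log2 fold change in TNF against control was 0.20 over the other 3 acute-phase genes tested, -0.07 over the other 7 lymphocyte factors and -0.34 over the 7 nerve cell genes, beside -0.01 over all tested genes.

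Lymphocyte markers were near 0, while single genes of the other marker lists were counted. Of 10 lymphocyte markers none passed the filter, and their summed level ran from 0.346 to 0.941 CPM with TNF plus Senexin B, 0.245 to 0.733 CPM with TNF, 0.428 to 0.496 CPM with Senexin B and 0.475 to 0.663 CPM in controls. CD3D and MS4A1, which mark T and B cells, had no count in any library. Among 9 hepatocyte markers 1 passed the filter, HNF4A, and APOB, APOH, TTR and FGB were at 0. The summed hepatocyte level ran from 3.41 to 7.11 CPM with TNF plus Senexin B, 7.11 to 8.67 CPM with TNF, 5.51 to 7.38 CPM with Senexin B and 5.93 to 9.28 CPM in controls. HNF4A, which gut epithelium also expresses, averaged 4.93 CPM with TNF plus Senexin B, 7.56 CPM with TNF, 6.49 CPM with Senexin B and 7.02 CPM in controls. Of 7 neuron markers 3 passed, and STMN2 and ELAVL4 were at 0. The neuron list summed to between 78.3 and 91.1 CPM over all libraries, nearly all of it from SYT1, a synaptic vesicle gene, with 82.1 CPM with TNF plus Senexin B, 76.9 CPM with TNF, 73.7 CPM with Senexin B and 71.2 CPM in controls. Of 7 fibroblast markers 1 passed, COL1A1, with group means from 9.27 to 10.3 CPM, and DCN, LUM and THY1 were at 0. The part of these genes in the results was not tested. All 8 epithelial markers passed, with a summed level from 4732 to 4776 CPM with TNF plus Senexin B, 4082 to 4543 CPM with TNF, 4800 to 4895 CPM with Senexin B and 4381 to 4714 CPM in controls. IKZF3 reads thus appeared in libraries with almost none from lymphocyte markers.

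The NF-kB list gave the setting. All 29 tested of its 36 feedback and target genes rose in both comparisons with TNF, where 5.81% of tested genes were called higher for TNF against control and 4.27% for the combination against the inhibitor alone. Their median log2 fold change for TNF against control was 2.10. TNFAIP2 rose by 3.29 ± 0.05 and NFKB2, the precursor of the NF-kB subunit p52, by 2.10 ± 0.05. IER3 rose by 0.64 ± 0.05 and SOD2, the mitochondrial superoxide dismutase, by 0.27 ± 0.05. In TNF plus Senexin B against TNF, 13 of the 29 were lower, 2 (BIRC2 and CFLAR) were higher and 14 were not called. Of all tested genes, 5.45% were called in that comparison and 2.55% were called lower. The median of the 29 was -0.21 on the log2 scale, beside 0.00 over all tested genes. IER3 fell by 0.32 and TNFAIP2 by 0.34, and both were also lower in Senexin B against control, by values of -0.33 (adjusted p of 9.77e-06 in edgeR's test) and -0.27 (0.00293, and 0.0612 without control replicate 3) on the log2 scale. Their interaction terms of 0.01 and -0.07 were not called.

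Along the chromosome, most tested genes near the 3 were not called. Of 29 protein-coding genes that start within 500 kb of IKZF3, 20 were tested, and none was higher and 2 were lower in TNF against control, a share like the 10% over all tested genes. With the inhibitor present 1 was higher with TNF, beside 4.27% of all tested genes. This was CDK12, an RNA polymerase II kinase gene, by 0.15 ± 0.05 on the log2 scale. Its adjusted p of 0.0388 in edgeR's test did not hold without Senexin B replicate 1 (0.226) or 2 (0.163), without any one library with TNF plus Senexin B (0.0509 to 0.270), without the filter (0.0703) or with DESeq2 (0.0894). The nearest, ZPBP2, had 2 counts in controls and 0 in the other groups. GSDMB, a gasdermin, had 49, 47, 77 and 56 counts and ORMDL3, a regulator of sphingolipid synthesis, had 988, 790, 1008 and 943 counts in the order TNF plus Senexin B, TNF, Senexin B, control. Of 12 genes near SERPINA3, 4 were tested and none was called in any comparison. Of 13 genes near C8orf46, 4 were tested and MYBL1 rose. Of all tested genes, 5.81% were called higher in TNF against control and 4.27% with the inhibitor present. In TNF plus Senexin B against TNF, 2.55% were called lower. MYBL1, a MYB family transcription factor that starts 121039 bases away, averaged 40.5 ± 0.612 CPM with TNF plus Senexin B, 48.5 ± 2.91 CPM with TNF, 26.2 ± 1.87 CPM with Senexin B and 30.2 ± 1.43 CPM in controls. It rose by 0.68 ± 0.08 on the log2 scale in TNF against control (adjusted p of 6.29e-10) and by 0.62 ± 0.08 with the inhibitor present (1.34e-08). MYBL1 fell by 0.25 on the log2 scale in TNF plus Senexin B against TNF, with an adjusted p of 0.0266 in edgeR's test that did not hold without TNF replicate 1 (0.131), without any one library with TNF plus Senexin B (0.0698 to 0.101) or with DESeq2 (0.101).

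Overlapping annotation touches the counts of 2 of the genes. GENCODE 29 has a further protein-coding gene on the same strand that shares 3002 exon bases with C8orf46, and another that shares 1592 exon bases with SERPINA3. Neither symbol was found in the table, and whether reads were lost to them or shared with them was not tested. ADHFE1, the alcohol dehydrogenase gene upstream of C8orf46, had 8, 4, 3 and 5 counts with TNF plus Senexin B, with TNF, with Senexin B and in controls, all low. IKZF3 shared no exon base with another annotated gene.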

How the data were processed

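Per the labels' protocols, the 12 HCT116 libraries (3 biological replicates in each of 4 groups) were made with a TruSeq RNA kit, an unstranded method. The deposited table holds raw read counts per gene symbol, with no normalization by the authors. The submitters' processing notes name STAR 2.4, SAMtools 1.2, featureCounts of Subread 1.4.6 and the build GRCh38 (hg38). The annotation release, strand setting and treatment of multi-mapping reads are not given in the sources used here.

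The 3 genes, all gene lists and the tests were chosen with earlier results of these data known. Tests used edgeR 4.0.16 under R 4.3.3: low genes were removed by filterByExpr, libraries scaled by TMM, and robust quasi-likelihood F-tests run over all 12 libraries, with 1 coefficient per group. Genes were called at a Benjamini-Hochberg adjusted p under 0.05 over the 13084 genes tested. The steps were tested on simulated data. Errors of log2 fold changes are Wald standard errors scaled by the quasi-dispersion, and fold intervals are built from them. Sums of counts have exact 95% Poisson intervals, and ratios of sums per TMM-corrected library size have exact conditional ones. A group at 0 was set to a floor of 3 counts. Alternatives were DESeq2 1.42.0, its size factors, no filter, only the groups compared, a replicate block and leaving out each library.

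Named genes were the 3 genes, the 5 most similar to each, the 10 near-silent symbols with the most TNF counts, up to 4 tested genes per list by mean CPM, all Ikaros family and clade A serpin members by their counts, and the 4 nearest tested neighbours. Clone names were counted only, and some items are not reported here. Genes just outside a limit, called members of lists beyond 4, the markers at 0, C3, SAA1, CXCL2, CXCL3, ADHFE1, CDK12 and ZPBP2 were named after their values were seen. Positions are from GENCODE 29, and the promoter is from RefSeq.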

Additional observations from a re-analysis of the deposited data

How the results depend on the processing

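For the 3 genes, 15 results were recomputed under 171 alternatives, of which 159 kept direction and side of the threshold, 11 turned direction without a call, 1 gained a call and 0 lost one. The gained call was SERPINA3 for TNF plus Senexin B against TNF, at a log2 fold change of 1.10 with the replicate block. Its log2 fold change ran from 0.88 to 1.23 and its adjusted p from 0.0456 to 0.315. C8orf46 ran from -0.83 to -0.50 (adjusted p 0.0986 to 0.536) and IKZF3 from 0.00 to 0.32 (0.669 to 0.998). The directions that turned had near-zero baselines. Leaving out 1 library, the adjusted p ran from 0.906 to 0.966 for IKZF3 in Senexin B against control, and the direction turned without control replicate 1, control replicate 3 or Senexin B replicate 1 (0.939 to 0.966). It turned also without both control replicate 1 and TNF replicate 1, a pair chosen after seeing the data (0.956). In the interaction, leaving out 1 library gave 0.943 to 0.999 for IKZF3, which turned without the same 3 libraries (0.987 to 0.996) and without that pair (0.998). For SERPINA3 it gave 0.889 to 0.992, and the direction turned without control replicate 2, control replicate 3 or Senexin B replicate 3 (0.985 to 0.992). DESeq2 called fewer genes, 255 for Senexin B against control, 410 for the inhibitor in TNF-treated cells and 838 for TNF against control, beside 398, 713 and 1309. Leaving out a library gave 236 to 333 calls for Senexin B against control (416 without that pair), 451 to 815 for the inhibitor in TNF-treated cells and 2 to 9 for the interaction, and no filter gave 10 for the interaction in place of 6. The cause was not tested. Same-numbered libraries deviated together only weakly (correlations from -0.0123 to 0.103, 17 of 18 above 0 and 1 over 0.1), so the numbers were not taken as pairs. As a hint from the data, not from the design, 12 of 12 libraries had a higher mean correlation with their own number than with the others. The replicate block called 479, 871 and 1470 genes in those comparisons and 6 in the interaction. For other named genes, 260 of 288 alternatives kept direction and call and 28 lost a call, those of TNFRSF9, MYBL1, CDK12, TNFAIP2, TCF3, RUNX3, XBP1 and TUBB3; TUBB3 had an adjusted p of 0.0817 and RUNX3 0.0543 with DESeq2, and TCF3 had 0.0624 with only the groups compared. Fitted on the compared groups alone, Senexin B against control gave no value for the 3 genes, which fell below the filter.

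Depth limits the baselines. With 0 to 3 counts per library without TNF, upper bounds on the folds are loose, and a change with Senexin B alone could not be seen. All 3 genes were picked for the TNF difference, so no statement rests on its size.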

Other observations

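Besides the 3 genes, some near-silent symbols reached 20 counts over a group with TNF plus Senexin B and stayed below it with TNF. In all, 14 near-silent symbols reached 20 counts with TNF plus Senexin B, and 6 of these also did so with TNF. The 7 covered here are not all of the remainder, and 1 of them carries a clone name. They were chosen after their values were seen, by a rule that makes a ratio over 1 likely, none passed the filter on low counts, and none was tested. CSF2, the cytokine GM-CSF, had 7, 10 and 10 counts with TNF plus Senexin B and 4, 6 and 5 with TNF, against 0 in all libraries with Senexin B and in controls. The ratio per library size of the first to the second was 1.56, with an interval from 0.802 to 3.16. FGF1, a fibroblast growth factor, had 10, 8 and 11 counts with TNF plus Senexin B and 3, 7 and 1 with TNF. Its sums were 29 with TNF plus Senexin B, 11 with TNF, 11 with Senexin B and 1 in controls, and the ratio was 2.29 (1.11 to 5.08). IL7, a lymphocyte growth factor, had sums of 26 with TNF plus Senexin B, 13 with TNF, 4 with Senexin B and 5 in controls (ratio 1.74, 0.860 to 3.68). APOL6, an apolipoprotein L family gene, had 29, 15, 4 and 2 in the same order (1.68, 0.871 to 3.37). STAT5A, a cytokine-activated transcription factor, had 25, 17, 1 and 1 (1.28, 0.662 to 2.52), and CIITA, the MHC class II transactivator, had 23, 17, 9 and 5 (1.17, 0.600 to 2.34).

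GPR37L1, a G protein-coupled receptor gene, had 9 counts over the controls, just above the near-silent limit. It had 79 counts with TNF plus Senexin B, 46 with TNF and 6 with Senexin B. These are raw counts, and GPR37L1 was named after its values were seen. CXCL1, also with 9 counts over the controls, had 289 counts with TNF plus Senexin B, 519 with TNF and 10 with Senexin B. Between the TNF-treated groups CXCL1 thus went the other way.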
